A study of Rattus norvegicus with 2 samples.

Results

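Proteoglycan core protein genes were compared between 2 arrays of AT6.1 cells, a metastatic rat prostate cancer line. The set held serglycin (Srgn), the 4 syndecans (Sdc1 to Sdc4), glypican-1 (Gpc1), the small leucine-rich proteoglycans biglycan (Bgn), decorin (Dcn) and lumican (Lum), and versican (Vcan). These 10 genes were chosen by gene family with the log2 ratios of these same arrays in view, so their values are a description. All probe sets annotated to exactly 1 of them were taken. That gave 19 probe sets, for 10 of the 14217 genes on the array. The Ndrg-1 array came from clone 7, transfected with pcDNA3 carrying N-myc downstream regulated gene-1, and the vector array from clone 9, transfected with pcDNA3 without an insert. Cultures of both clones contained 10% fetal calf serum in RPMI and 0.3 mg/mL G418, the drug that selects for the plasmid. The study asked which genes are expressed differently when Ndrg-1 is high. There was 1 array and 1 clone per group and no replicate, so clone, culture and array cannot be told apart from the insert, and no difference has a replicate check.

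A proteoglycan is a core protein that carries glycosaminoglycans, long sulfated sugar chains built in the Golgi, mostly on serine residues. Chains of the heparan sulfate type bind growth factors and chemokines at the cell surface, where syndecans span the membrane and glypicans are held by a lipid anchor. Chondroitin and dermatan sulfate chains are carried by versican and by biglycan and decorin in the matrix, and lumican carries keratan sulfate. Serglycin is the exception in location: it is packed into secretory granules and vesicles, mostly of blood cells and endothelium, and is also made by some tumour cells.

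The values are signals, the linear intensity of a probe set after the authors' scaling. In each pair of signals the Ndrg-1 array is given first and the vector array second. Signals under 31.0, the median of all signals, were treated as unmeasured, and a ratio with 1 array under this floor is only a bound. Differences of 2-fold or more, a log2 ratio of 1, were counted. The only error the table holds is the disagreement between probe sets of 1 gene, with an SD of 0.23 on the log2 ratio (5336 probe sets of 2296 genes). It leaves out variation between clones, cultures and arrays, and for a gene with a single probe set it is borrowed from other genes. The probe sets annotated to Ndrg1 read 1353 against 1062 on the brighter and 154 against 181 on the other, so neither was 2-fold higher. Whether they detect the transfected insert is not given in the sources used here. Over all 9182 measured genes, 1.62% reached 2-fold upward with Ndrg-1 and 1.5% downward, 3.13% together.

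Serglycin was the member that differed most, and versican was lower on every probe set that was measured. Sdc1, Sdc2, Sdc4, glypican-1 and biglycan differed little. Of the 10 genes, 8 were measured. Among these, 1 was at least 2-fold higher, 0 were at least 2-fold lower and 7 did not reach the call. One of the 7, Sdc3, has only a lower bound, so its ratio may be larger. The share called, 12.5%, stands beside the 3.13% of all genes, but the set was proposed with this contrast known, so nothing is read from it. The median log2 ratio of the 8 was 0.05, against 0.0029 for all measured genes. This median counts Sdc3 at its bound, and with a pseudocount of 16 in place of the floor it was 0.14. The plot of member signals shows each probe set in both arrays.

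**Figure D1:**
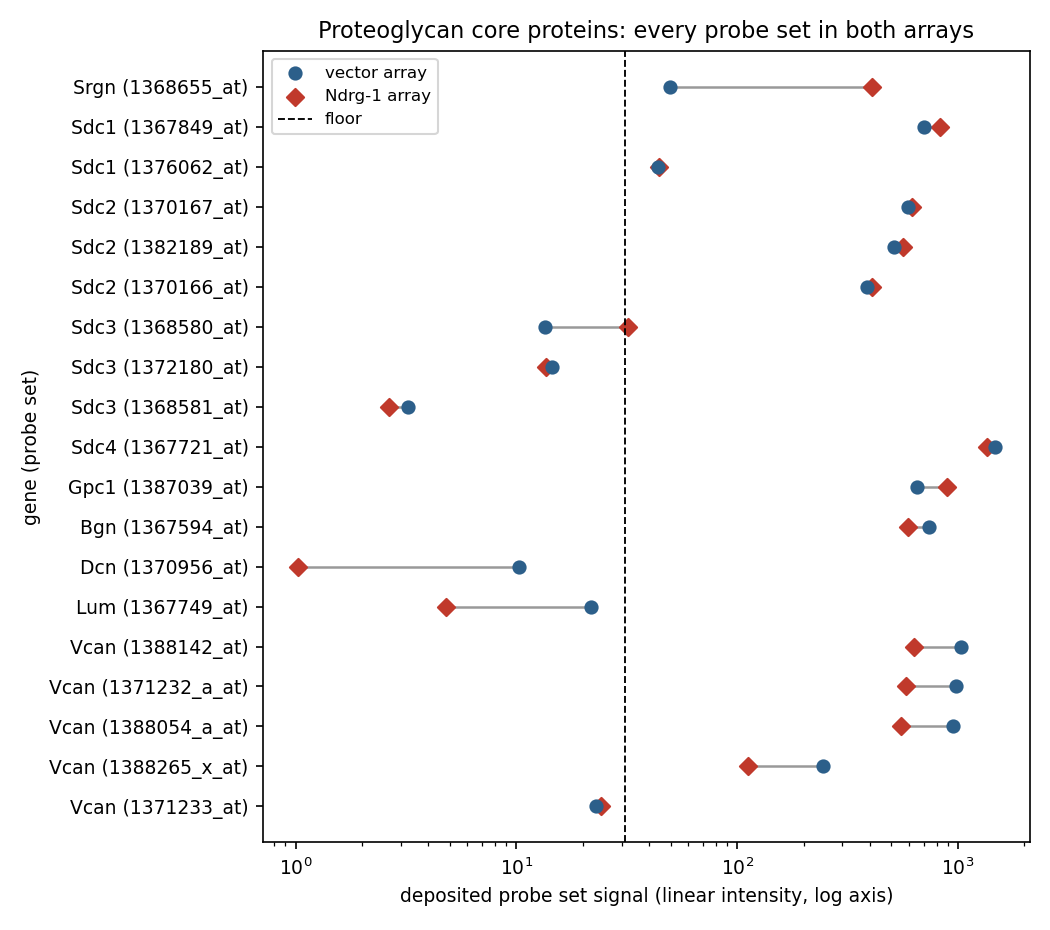
Signal of each of the 19 probe sets of the 10 proteoglycan genes in the vector array (circles) and the Ndrg-1 array (diamonds), on a log axis of linear intensity, with the floor of 31.0 dashed. Srgn is displaced to the right by 8.19-fold, the 4 brighter Vcan probe sets are displaced to the left, and the Dcn and Lum points all lie under the floor.

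Srgn encodes the serglycin core protein, whose chains bind and store positively charged proteases and chemokines in granules. Its single probe set read 409 against 49.8. This is 8.19-fold higher, a log2 ratio of 3.03, which is 13.1 times the SD of probe set disagreement. That SD comes from other genes with several probe sets and is no test of the difference between the clones. The vector signal lay not far above the floor of 31.0, so the size of the ratio rests on a dim value there. No further probe set of Srgn was available to check it. The gene was at least 2-fold higher in each of the 10 alternative settings, with log2 ratios from 1.25, where a floor of 172 replaced the vector signal and the ratio is a bound, to 3.58. The 3 genes closest to it in log2 ratio, among those above the floor in both arrays, were Mgll at 3.37, Col4a1 at 2.41 and Ogfrl1 at 2.24. The measure of likeness is the difference in log2 ratio over these 2 arrays, and these genes lay 0.34, 0.63 and 0.79 away.

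Genes beside Srgn on chromosome 20 did not share its ratio. In the RefSeq gene order of the rat assembly GRCr8, the 5 measured genes on each side had log2 ratios from -0.20 (Aifm2) to 0.68 (Fam241b), with a median of 0.10. Of these 10 neighbours, 0 reached 2-fold. The adjacent measured genes were Vps26a, a subunit of the retromer that sorts endosomal cargo, at 576 against 564, and Kifbp at 223 against 242. Beside Vcan on chromosome 2, the 10 neighbours had log2 ratios from -0.83 (Ssbp2) to 0.09 (Ccnh) with a median of -0.07, and 0 reached 2-fold. One of them, Ssbp2, lay lower than Vcan.

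**Figure D2:**
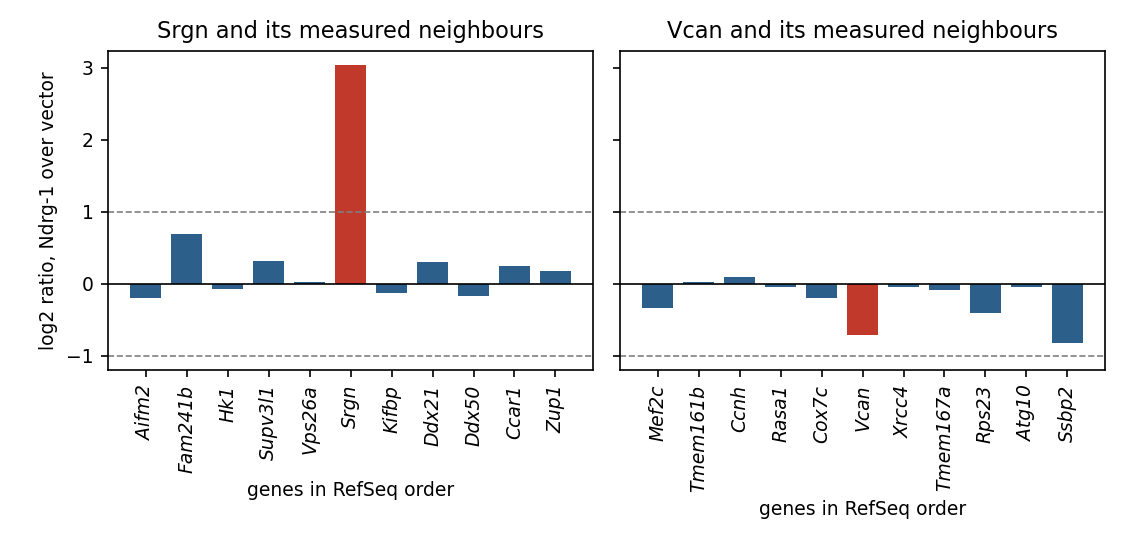
Log2 ratio (Ndrg-1 array over vector array) of Srgn and of Vcan, in red, and of the 5 measured genes on each side in RefSeq order, in blue, with 2-fold dashed. Srgn stands at 3.03 among neighbours between -0.20 and 0.68, and Vcan at -0.71 among neighbours between -0.83 and 0.09.

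Upstream sequences from RefSeq (GRCr8) were on hand for 6 of the 10 genes. That of Srgn is shown as the gene with the largest ratio, and that of Sdc4 as a syndecan whose signals were nearly the same in both arrays. Each is the 250 bases before an annotated start, 5′ to 3′ on the gene's strand. The Srgn stretch is chr20:31000104-31000353, minus strand, and the Sdc4 stretch is chr3:173592924-173593173, minus strand. Capitals mark the GC box GGGCGG, read on either strand.
Srgn: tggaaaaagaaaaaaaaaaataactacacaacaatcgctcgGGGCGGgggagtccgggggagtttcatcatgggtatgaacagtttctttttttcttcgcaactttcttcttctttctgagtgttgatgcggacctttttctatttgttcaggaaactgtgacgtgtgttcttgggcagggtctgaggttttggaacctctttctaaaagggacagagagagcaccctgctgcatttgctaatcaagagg
Sdc4: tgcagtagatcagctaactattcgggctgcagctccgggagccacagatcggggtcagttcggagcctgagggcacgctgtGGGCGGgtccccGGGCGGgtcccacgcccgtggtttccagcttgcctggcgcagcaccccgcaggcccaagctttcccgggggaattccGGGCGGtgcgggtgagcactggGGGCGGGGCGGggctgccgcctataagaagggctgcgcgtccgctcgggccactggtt

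The Srgn stretch was 44.0% G and C and held 1 GC box, while the Sdc4 stretch was 70.0% G and C and held 5, of which the last and the one before it overlap. The other syndecan stretches had 65.2% (Sdc1, 3 GC boxes) and 80.0% (Sdc3, 4 GC boxes). Lum had 52.8% and no GC box, and the upstream of the outermost Vcan start had 61.6% and 1 GC box. Over the 27457 genes in that table, the median was 52.0% G and C, and 32.4% held at least 1 GC box. The letters searched also included the AP-1 site TGANTCA (6.36% of promoters), the cAMP response element TGACGTCA (1.7%), TATAAA (13.1%), the E-box CACGTG (5.79%) and CCAAT (34.3%), each on both strands. None of these was in either printed stretch. The Srgn start used here lies 22193 bases inside the full annotated span of the gene, so other transcripts start elsewhere. A match or its absence describes these letters and shows no binding.

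The syndecans are transmembrane heparan sulfate proteoglycans that serve as co-receptors for growth factors and matrix. Of these, Sdc1, Sdc2 and Sdc4 had nearly equal signals in both arrays. Sdc1 had 831 against 700 on its brighter probe set, a log2 ratio of 0.24, and 44.5 against 43.6 on the other. Sdc2 had 3 probe sets, at 618 against 597, 561 against 511 and 410 against 386. Their log2 ratios lay between 0.05 and 0.13 with a mean of 0.09 ± 0.04 (SD over 3 probe sets). Sdc4, the syndecan of focal adhesions, had 1359 against 1471, a log2 ratio of -0.12. Signals above 968 belong to the brightest decile of probe sets, which had a median log2 ratio of -0.13, and the Sdc4 value lies there.

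Sdc3, a syndecan best known from the nervous system, was close to unmeasured. Its brightest probe set read 32.1 against 13.4, so only a bound of 0.05 or more was left at the floor of 31.0. Its 2 other probe sets read 13.6 against 14.6 and 2.65 against 3.23, under the floor in both arrays. When the floor was lowered to 7.67, the 25th percentile of signals, the brightest probe set had a log2 ratio of 1.25, while the next probe set, also above that floor in both arrays, was slightly lower in the Ndrg-1 array. The Sdc3 probe sets therefore do not give 1 direction.

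Gpc1, the glypican that is anchored by lipid and binds fibroblast growth factors, was modestly brighter with 889 against 651. The log2 ratio of 0.44 lies just inside 2 SD of probe set disagreement (0.46) and far from 2-fold. It was above 0 in all 10 alternative settings, from 0.23 to 0.99, the highest with scaling to the hybridisation spikes. Of the 3 syndecans with values in both arrays, 2 changed direction with the scaling. Sdc2 turned to -0.17 with scaling to the poly-A spikes and Sdc4 turned to 0.43 with scaling to the hybridisation spikes, while Sdc1 stayed above 0, from 0.03 to 0.79.

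Vcan encodes versican, the large chondroitin sulfate proteoglycan that binds hyaluronan and loosens the matrix. Its representative probe set read 633 against 1033, a log2 ratio of -0.71. Other probe sets read 581 against 980 (-0.76), 553 against 952 (-0.79) and 112 against 245 (-1.13). The Ndrg-1 array was lower on 4 of the 4 probe sets above the floor, with a mean log2 ratio of -0.85 ± 0.19 (SD over 4 probe sets). The probe sets share the transcript and the arrays and are not replicates of the condition. The fifth probe set was under the floor in both arrays at 24.1 and 23.0. The 1 probe set past 2-fold carries the suffix _x, which the manufacturer gives to probe sets that may bind other transcripts. By the representative probe set Vcan was 1.64-fold lower, under the 2-fold call, and its log2 ratio corresponds to -3.08 SD of probe set disagreement. Its ratio stayed below 0 in all 10 alternative settings, from -0.93 to -0.17, and in none reached 2-fold.

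Among the small leucine-rich proteoglycans, which bind collagen fibrils and TGF-beta, only Bgn was measured. Its signal was 597 against 743, a log2 ratio of -0.32, or -1.39 SD of probe set disagreement. With scaling to the hybridisation spikes it turned to 0.22. Dcn, the collagen-binding decorin, read 1.03 against 10.3, and Lum, lumican, read 4.80 against 21.7. All 4 signals were under the floor, so neither gene was compared. When the floor was lowered to 7.67, the log2 ratio was -1.505 or lower for Lum and -0.43 or lower for Dcn, with the Ndrg-1 array at that floor for both. Dcn and Lum lie beside each other on chromosome 7, and 0 of the 10 measured genes around them reached 2-fold (log2 ratios from -0.55 to 0.19).

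**Figure D3:**
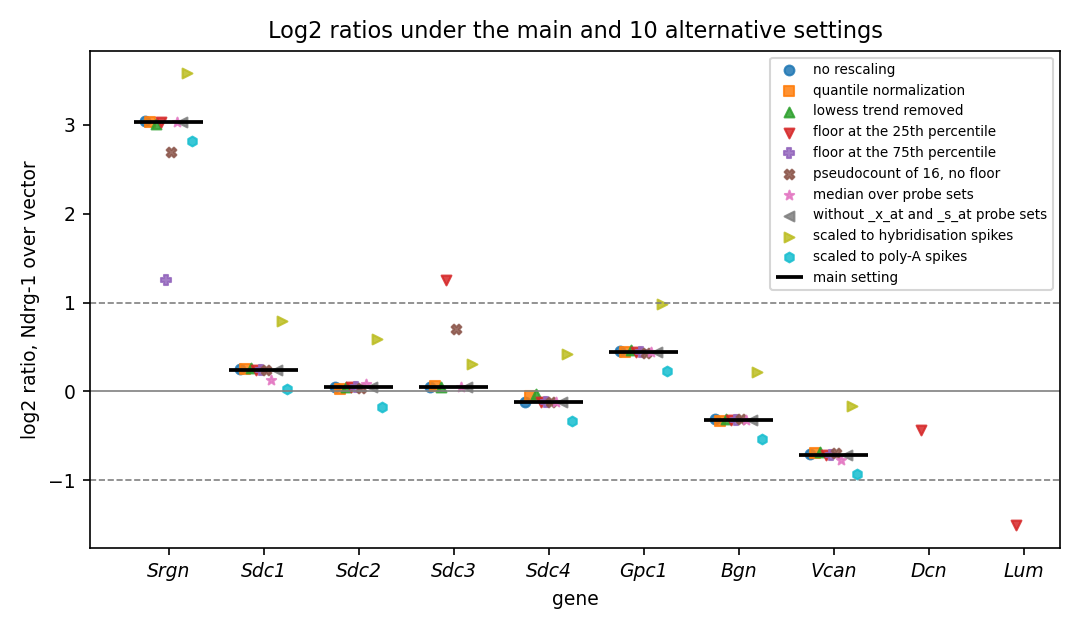
Log2 ratio (Ndrg-1 array over vector array) of each gene in the main setting (black bars) and in 10 alternative settings (symbols), with 2-fold dashed. Srgn is above 2-fold in all of them, Vcan is below 0 in all of them, and Sdc3, Dcn and Lum have no value in some because they lie near or under the floor.

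Of the 38 other proteoglycan core proteins listed, 31 were on the array and 10 were measured, with 2 at least 2-fold higher, 1 at least 2-fold lower and a median log2 ratio of 0.01. Nrp1, the semaphorin and VEGF co-receptor that can carry a glycosaminoglycan chain, had 370 against 88.9, 4.14-fold higher, with 1.90 on the log2 scale for its second probe set. Thbd, thrombomodulin, a thrombin receptor that can carry chondroitin sulfate, had 120 against 13.2 and was at least 3.86-fold higher. Of its other 2 probe sets, 1 read 50.7 against 1.65, a bound of 1.63-fold or more that does not reach the call. The last read 25.6 against 3.42, under the floor in both arrays, and was not compared. Gpc6, a glypican, had 43.0 against 100.4, 2.34-fold lower, and a second probe set was at least 2.24-fold lower.

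Of the 3 large heparan sulfate proteoglycans of the basement membrane that were measured, 2 stood below 0 and 1 near it, without reaching 2-fold. Agrn, agrin, had 61.4 against 109 (-0.84), and Hspg2, perlecan, had 60.1 against 91.4 (-0.61). Col18a1, the collagen that carries heparan sulfate, had 680 against 623 (0.12) and -0.19 on its second probe set. The surface chondroitin sulfate proteoglycan Cspg4 (NG2) had 90.8 against 145 (-0.68). Cd44, the hyaluronan receptor that in some splice forms carries chains and that also binds serglycin, had 910 against 805 (0.17), with 0.01 on a second probe set. The other 21 on the array were under the floor in both arrays, among them Acan, the aggrecan of cartilage, and the small leucine-rich Fmod and Ogn.

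Most of the genes listed for building the chains were close to equal in the arrays. Of 53 listed genes for sugar and sulfate precursors, the linker, chondroitin or dermatan sulfate and heparan sulfate, 41 were on the array and 27 measured. Of these, 22 lay within 0.5 of 0 on the log2 scale, 0 were at least 2-fold higher and 1 was at least 2-fold lower, with a median of -0.08 and 21 of the 27 below 0. Of all measured genes, 49.6% were below 0. The median of these lists depends on the scaling and turns positive with the hybridisation spikes.

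In the precursor and linker list (11 measured, median -0.10), Ugdh, which makes the glucuronic acid donor, had 1422 against 1427. The ends of the list were B3gat3, the linker glucuronyltransferase, at 0.04, and B4galt7, the first linker galactosyltransferase, at -0.79. Among chondroitin and dermatan sulfate enzymes (7 measured, median -0.02), the sulfotransferase Chst12 was highest at 0.37 and the epimerase-like Dsel lowest at -0.78. The chondroitin polymerizing factor Chpf was at -0.61. In the heparan sulfate list (9 measured, median -0.10), the polymerases Ext1 and Ext2 were at 0.08 and -0.08. Hs6st1, which adds 6-O-sulfate groups, was the 1 enzyme past 2-fold, with 43.8 against 99.8 (2.29-fold lower) on a single probe set.

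Enzymes that take the chains apart had a median log2 ratio of -0.13 (13 measured, 0 higher and 1 lower at 2-fold). Hyal3, a hyaluronidase family member, had 46.5 against 123, 2.66-fold lower, and its second probe set was 2.45-fold lower. Hyal2, a surface hyaluronidase, was at -0.77, and the lysosomal enzymes Glb1 and Hgsnat were at -0.59 and -0.49. Heparanase (Hpse), which cuts heparan sulfate and releases bound factors, had 140 against 134 (0.06). Of the hyaluronan and link protein list, 3 of 11 genes on the array were measured, from Cd44 at 0.17 to Tnfaip6 at 0.32, with the hyaluronan synthase Has2 under the floor in both arrays at 20.8 and 21.1.

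Most genes listed for proteins that bind syndecan tails, or act with those that do, were nearly equal. Of 12, 11 were measured, with 0 at 2-fold in either direction by the representative probe set and a median of -0.07. Sdcbp, syntenin, the adaptor that sorts syndecans into exosomes, had 2695 against 3414 (-0.35), and the lowest was Prkca, the kinase activated through Sdc4, at -0.36. The highest was Synj2bp, a PDZ-domain protein of the outer mitochondrial membrane, at 0.83, with 2 further measured probe sets at 0.93 and 1.03. Among proteases that shed or cut core proteins and their inhibitors (10 measured, median -0.23), Adamts4, which cleaves versican and aggrecan, was at least 2.09-fold higher at 64.7 against 28.8. Adam9 was 2.03-fold lower at 43.1 against 87.2, and the sheddase Adam17 was at -0.31.

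Ligands that bind the chains or the leucine-rich cores had the highest median of the lists with more than 3 measured genes, 0.56 over 10 measured genes, with 3 at least 2-fold higher and 0 lower. These were the chemokines Ccl7 (139 against 47.6), Ccl2 (1535 against 610) and Cxcl10 (213 against 86.5), which bind heparan sulfate. Their log2 ratios were 1.54, 1.33 and 1.29, each from a single probe set. Tgfb2 and Tgfb1 were at 0.96 and 0.67, and Vegfa was lowest at -0.31. The list median was 0.19 when the floor was lowered to percentile 25 and 0.16 when it was raised to percentile 75. Over the 10 lists together, 85 of 196 genes were measured, 6 were at least 2-fold higher and 4 lower. This is 11.8% beside 3.13% of all genes, in lists composed with earlier results known. Scaled to the hybridisation spikes, the 4 lower genes fell short of 2-fold (Hyal3 -0.87, Gpc6 -0.68, Hs6st1 -0.65 and Adam9 -0.48), and with a pseudocount of 16 only Hyal3 passed it, at -1.16. Adamts4 was at 0.85 with that pseudocount and 0.95 when scaled to the poly-A spikes, and Cxcl10 was at 0.31 with the floor raised to 172.

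**Figure D4:**
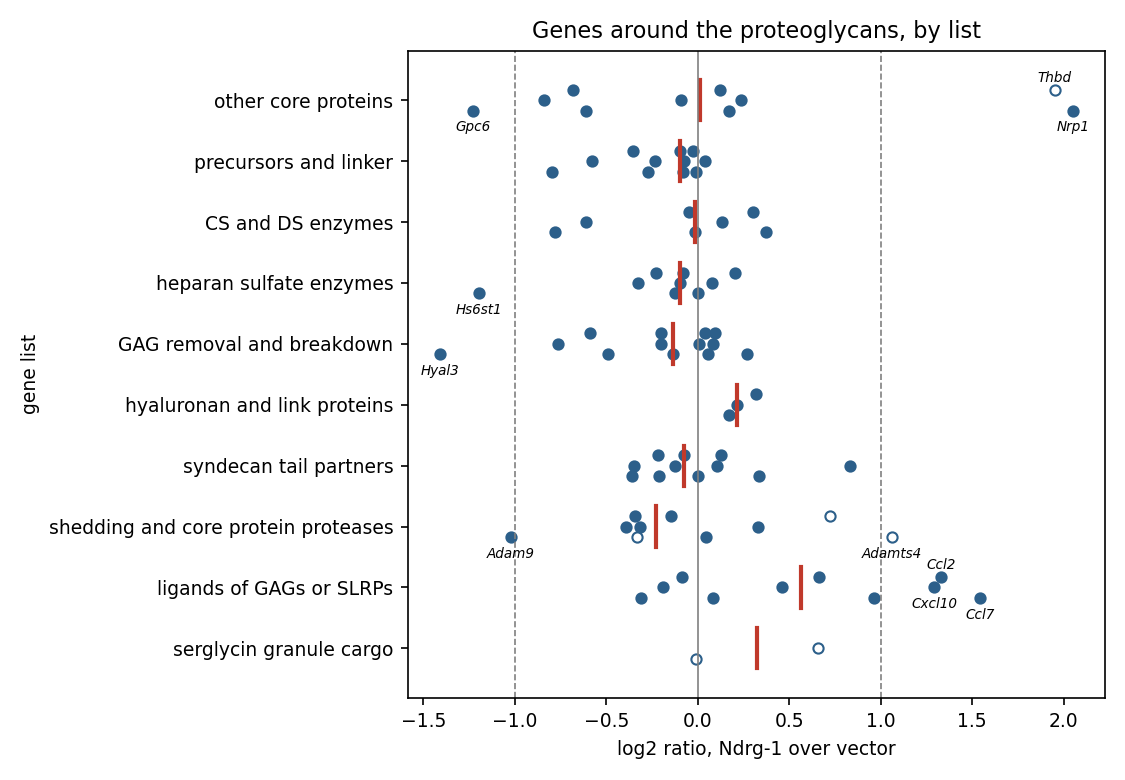
Log2 ratio (Ndrg-1 array over vector array) of each measured gene in the 10 lists of genes around the proteoglycans, with open points where 1 array is at the floor, red bars for list medians and 2-fold dashed. GAG stands for glycosaminoglycan, CS and DS for chondroitin and dermatan sulfate, and SLRP for small leucine-rich proteoglycan. The enzyme lists centre between -0.13 and -0.02 and the ligand list at 0.56, and the 10 labelled genes reached 2-fold.

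Because serglycin is best known from blood cells, its cargo and leukocyte markers are given beside it. Of 17 granule cargo genes on the array, 2 were measured, each in 1 array only. The mast cell tryptase Tpsb2 had 49.0 against 8.69 (log2 ratio at least 0.66), and Gzmk had 21.9 against 31.2 (-0.01 or lower). The other 15, among them Cpa3, Cma1, Prf1 and Gzmb, were under the floor in both arrays. Of 16 leukocyte and mast cell markers on the array, 3 were measured and 0 reached 2-fold. The summed signal over all 16 on the array, those under the floor included, was 380 against 280. The defining markers Ptprc, Itgam and Kit were under the floor in both arrays. Cd68, a lysosomal protein of macrophages and other cells, had 206 against 114 (0.85), Fcer1g had 45.8 against 34.3 (0.41), and Csf1r had 15.7 against 33.3.

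Other marker lists were as follows, with summed signals taken over all listed genes on the array, those under the floor included. Of 11 endothelial markers, 3 were measured, with a summed signal for the list of 332 against 209, and Eng, a TGF-beta co-receptor, was at least 2.94-fold higher. The defining endothelial markers Pecam1 and Kdr were under the floor in both arrays. Of 13 fibroblast and smooth muscle markers, 7 were measured (summed signal 5208 against 4876), with Col3a1 at 356 against 1038, 2.93-fold lower, and Col1a1 at 167 against 76.9, 2.16-fold higher (1.11 on the log2 scale, and between 0.90 and 0.99 in 3 alternatives). The part of these marker genes in the proteoglycan values was not tested. Of 11 epithelial markers only Krt8 was above the floor, at 38.7 against 46.2, while Cdh1 and Epcam were under it in both arrays. Of 7 prostate markers 3 were measured, from Steap1 at -0.32 (2824 against 3510) to Tmprss2 at 0.19 or more, and the defining markers Pbsn, Hoxb13 and Folh1 were under the floor in both arrays.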

How the data were processed

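RNA from 2 clones was measured on 1 Affymetrix array each. The deposited values are intensities (probe set signals, linear scale), which the authors obtained from GCOS 1.3 according to the submitters' processing notes. How probe sets were summarised and scaled, and any detection calls, is not given in the sources used here. A mean that leaves out 2% of probe sets at each end was 150.0 for either array, so a common level had been set.

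Symbols from the platform annotation were updated by gene ID through RefSeq's GRCr8 annotation (20758 of the 20826 probe sets with 1 symbol matched), and 57 control probe sets were set apart. The vector array was shifted by 0.0048 (log2) so that the median ratio of the brighter probe sets was 0. Signals under the floor of 31.0 were raised to it and log2 values computed. A gene's representative was the probe set of highest mean log2 signal. With 1 array per group no p-value was possible, and the number of arrays limits the precision.

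Named genes were the 10 members, the 3 genes closest to Srgn, and in each of 10 gene lists and 5 marker lists the genes at least 2-fold different (at most 4 per direction), or otherwise the highest and lowest ratio. Other genes were named after their values were seen. The members and lists were chosen with earlier results of these data known. Counting was checked on simulated data with changes placed only in bright genes, so that check does not cover calls near the floor. The alternatives were signals as deposited, quantile normalization, a lowess trend removed, a floor at percentile 25 or 75, a pseudocount of 16, the median over probe sets, no _x_at or _s_at probe sets, and scaling to either set of spiked controls. The software was Python 3.11.15 with statsmodels 0.14.6, pandas 2.3.3, numpy 2.4.6 and, for figures, matplotlib 3.10.9.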

Additional observations from a re-analysis of the deposited data

How the results depend on the processing

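Srgn was at least 2-fold higher in the 10 alternatives, and Vcan and Gpc1 kept their direction. The 14 member and list genes at least 2-fold different kept their sign wherever they had a value. Of these, Gpc6, Thbd, Hs6st1, Hyal3, Adam9, Adamts4, Ccl7, Eng and Col1a1 had none at the 75th percentile floor. The genes closest to Srgn (Mgll, Col4a1 and Ogfrl1) were not run under the alternatives. Of 199 values of 21 member and list genes, 164 moved by less than 1 SD of probe set disagreement and 35 by more. Among those under 2-fold, Sdc2 turned to -0.17 with the poly-A spikes, and Sdc4 and Bgn turned to 0.43 and 0.22 with the hybridisation spikes. Sdc3, Dcn and Lum depend on where the floor lies. At the 25th percentile, 2 members were at least 2-fold higher and 1 lower, all genes counted were 444 higher and 463 lower, 7 pathway genes were lower, the ligand median was 0.194 and the granule cargo median -0.343. At the 75th percentile, all genes counted were 23 higher and 34 lower, pathway genes 2 higher and 0 lower, and the ligand median was 0.155, and granule cargo had no value. With the pseudocount, 1 pathway gene was lower. The hybridisation spikes were 0.54 lower in the Ndrg-1 array on the log2 scale and the poly-A spikes 0.21 higher. Scaled to the former, all genes counted were 732 higher and 43 lower, pathway genes 10 higher and 0 lower, and the member median was 0.508. List medians were then 0.471 (other core proteins), 0.448 (precursors and linker), 0.528 (chondroitin and dermatan sulfate), 0.448 (heparan sulfate), 0.411 (removal and breakdown), 0.724 (hyaluronan), 0.471 (tail partners), 0.314 (proteases) and 1.107 (ligands). Scaled to the poly-A spikes, 240 of all genes were lower. The hybridisation and poly-A spikes moved the ratios in opposite directions, and which scaling or floor is right was not tested. No paired analysis was possible because each group has 1 array. Srgn, Sdc4, Gpc1, Bgn, Dcn and Lum have a single probe set each.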
